A study of Mus musculus with 12 samples.

Results

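Protein tyrosine phosphatases take phosphate off tyrosine residues. Described here are 8 phosphatase genes of lymphocytes (Ptprc, Ptprj, Ptpn2, Ptpn6, Ptpn7, Ptpn11, Ptpn18 and Ptpn22) and Ptprcap, whose product travels with CD45, the product of Ptprc. These 9 genes were taken by symbol from a table of 41128 genes, and all 9 were found, each once. The table comes from the RNA sequencing arm of a murine lymphocyte resource and holds 12 libraries of spleen cells, all from C57BL/6J mice that were 6 to 8 weeks old, with no modified allele and no treatment named in the labels. The 4 groups of 3 libraries are female and male resting B cells, which lack surface CD43, and female and male naive CD4+ T cells. The T cells carried CD62L and were sorted as live cells with high CD62L, low CD44 and no CD25. Each library is a pool of mice, so every p-value below measures the spread between pools. No source used here divides the B cells further, so follicular and marginal zone B cells are not told apart.

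Antigen receptors of B and T cells signal through tyrosine kinases of the Src family, which are held in check by phosphorylation of a tyrosine near their end. CD45 removes that phosphate and so permits signalling, the kinase Csk puts it back, and CD148, encoded by Ptprj, shares part of the work of CD45 in B cells and myeloid cells. Cytoplasmic phosphatases then set how long the signal lasts, among them SHP-1 (Ptpn6), which is drawn to the phosphorylated tails of inhibitory receptors, and LYP, also called PEP (Ptpn22), which binds Csk and damps T cell receptor signalling.

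Levels are given as adjusted TPM, that is transcript abundance corrected for transcript length, after a rescaling between libraries by the authors. Sums over the table ran from 561020 to 1453940, and 11122 to 11543 genes per library reached a value of 1. The 4 B cell markers (Cd79a, Cd79b, Ms4a1 and Pax5) summed to between 2220 and 2643 in the B cell libraries and to between 0.896 and 4.91 in the T cell libraries. The 5 T cell markers (Cd3d, Cd3e, Cd4, Lck and Tcf7) summed to between 1017 and 1194 in T cells and to between 9.76 and 14.1 in B cells, where Lck alone gave 8.94 to 13.4. Monocyte and macrophage markers, of which 4 of 5 are in the table, summed to between 10.3 and 14.3 in B cells and to between 2.62 and 5.76 in T cells. These are bulk samples, so fewer cells that express a gene and less RNA of it per cell cannot be told apart.

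B and T cells were compared with limma on log2(adjusted TPM + 1), averaged over the sexes, and a gene was called when its adjusted p (Benjamini-Hochberg over all genes tested) was under 0.05. All 9 genes passed the filter on low values, Ptprj through the B cells alone. Of the 9, 8 were past the threshold, where 73.0% of the 12520 genes tested were, so the count is not far above that background. Ptprj, Ptpn6 and Ptprcap were higher in B cells (31.4% of all genes tested were), and Ptprc, Ptpn2, Ptpn7, Ptpn18 and Ptpn22 were higher in T cells (41.6%). In 7 of the 9 the B and T cell libraries did not overlap, against 53.9% of genes tested, with 2 of the 7 higher in B cells (24.2% of genes tested) and 5 higher in T cells (29.7%). The median log2 fold change of B over T was -0.41 over the 9 genes and -0.09 over all tested genes. Ptpn11 was the gene not past the threshold.

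**Figure D1:**
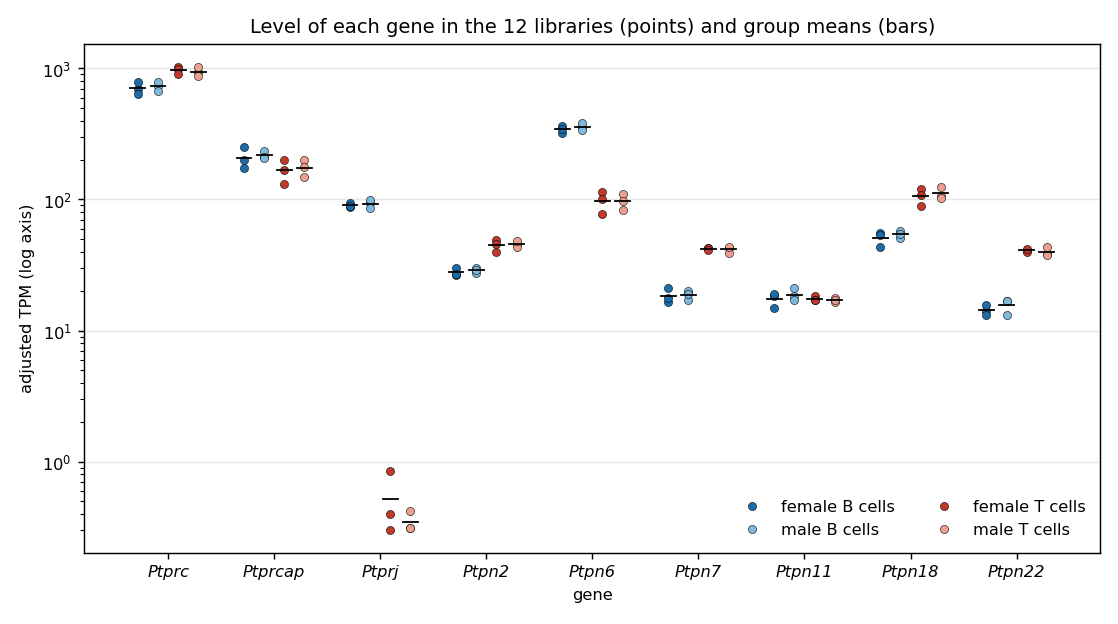
Adjusted TPM (log axis) of the 9 genes in each of the 12 libraries, with female and male B and T cells in separate columns of 3 points and a bar at each group mean. Ptprj lies between 85.8 and 98.6 in B cells and at or below 0.854 in T cells, and the B and T cell points of Ptpn11 share 1 range.

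Ptprc encodes CD45, the receptor-type phosphatase found on all nucleated blood cells, and it lies on chromosome 1 (GRCm38, chr1:138062861-138175708, minus strand, ENSMUSG00000026395). In B cells its lowest, median and highest values were 638, 717 and 788, while T cells had 871, 965 and 1024. Every T cell library lay above every B cell library, and the deposited intervals of the values were separate in all 36 pairs of a B and a T cell library. They were also separate in all 12 pairs of replicates within a group, so separate intervals do not mark a difference between the cell types. Means were 719 ± 60.9 for B cells against 957 ± 63.5 for T cells (SD, n = 6 each), a 1.33-fold excess in T cells (log2 fold change -0.41, SE 0.09, limma adjusted p = 0.00106). This direction rested on the scaling between libraries. The fold change was -0.33 under median-ratio scaling (adjusted p = 0.0034), -0.13 with protein-coding genes rescaled to a total of 1000000 (adjusted p = 0.30), -0.03 when whole libraries were rescaled to that total (adjusted p = 0.92) and 0.08, towards B cells, under quantile normalization (adjusted p = 0.39). Protein-coding genes held 38.5% to 67.98% of the deposited total, and the median fold change of all tested genes moved from -0.09 to 0.17 and 0.25 in the rescalings to a protein-coding and to a whole total. Relative to that median, Ptprc stood at -0.33 under the authors' scaling, at -0.29 after rescaling to the whole total and at 0.16 under quantile normalization.

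Splicing of Ptprc, which gives CD45 its long and short forms, is not resolved by a table with 1 value per gene. Hnrnpll, which encodes an RNA-binding protein that promotes skipping of the variable exons of Ptprc, had 0.272 ± 0.0541 among B cells against 22.5 ± 2.29 among T cells (SD, n = 6 each). No B cell library reached 1 (at most 0.336), so Hnrnpll passed the filter on low values through the T cells alone. Its log2 fold change was -4.20 (SE 0.07, limma adjusted p = 1.7e-14), and 2.52% of tested genes were past the threshold with an absolute log2 fold change of at least 4.

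Ptprcap encodes a small transmembrane protein that associates with CD45 (chr19:4153604-4156751, plus strand, ENSMUSG00000045826). Its lowest, median and highest values were 173, 210 and 252 for B cells against 132, 172 and 202 for T cells. The ranges overlapped, since the highest T cell libraries, female and male number 4 at 202 and 200, lay above the lowest B cell library at 173. Means were 213 ± 27.8 and 171 ± 27.8 (SD, n = 6 each), with a log2 fold change of 0.32 (SE 0.12, limma adjusted p = 0.0272). That call was lost when female B cell 2 (0.25, adjusted p = 0.069), male B cell 1 (0.30, adjusted p = 0.059), female T cell 6 (0.25, adjusted p = 0.065) or male T cell 6 (0.27, adjusted p = 0.069) was left out, in females alone (0.32, adjusted p = 0.17), without the filter (0.32, adjusted p = 0.056), and without both T cell libraries numbered 6 (0.19, adjusted p = 0.14). Of its 1611 exon bases, Ptprcap shares 432 with Coro1b on the same strand and 1224, which is most of them, with Rps6kb2 on the opposite strand. How reads there were assigned is not given in the sources used here, which bears on every Ptprcap value and ratio. Coro1b had 69.5 to 87.6 in the 12 libraries and Rps6kb2 had 6.46 to 10.9.

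Ptprj encodes CD148, a receptor-type phosphatase with a large extracellular part (chr2:90429754-90580647, minus strand, ENSMUSG00000025314). It had the largest fold change of the 9 genes. In B cells its lowest, median and highest values were 85.8, 91.7 and 98.6, while the T cells had 0.302, 0.356 and 0.854. No T cell library reached 1, and B cell values stood 211.5 times higher on average (91.5 ± 5.02 against 0.433 ± 0.212, SD, n = 6 each). On the scale with a pseudocount of 1, which understates changes of genes with low values, the log2 fold change was 6.02 (SE 0.08, limma adjusted p = 2.2e-15), and with a pseudocount of 0.1 it was 7.50. The deposited upper bounds of the T cell values were 1.36 to 2.04 times the lower bounds.

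The residual Ptprj in T cells was set beside the B cell markers of the same libraries. Ptprj stood at 0.330% to 0.458% of its B cell mean in 5 T cell libraries and at 0.933% in female T cell 6, while the summed B cell markers stood at 0.0376% to 0.102% and at 0.206%. Of the 4 monocyte and macrophage markers, Lyz2 (2.52, against at most 1.22 in the other T cell libraries) and Csf1r (0.964, against at most 0.296) were highest in female T cell 6. Cd68 (1.07, against 0.495 to 1.21) and Itgam (1.21, against 0.916 to 1.71) were not, and the 4 summed to 5.76 there and to 2.62 to 3.15 in the others. The part of such cells in the Ptprj value was not tested.

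Sequence just before the start of Ptprj is shown because no other gene of the 9 differed as much. It is the stretch of a RefSeq promoter window (250 bases before the start) that lies outside the GENCODE gene, chr2:90580648-90580845, printed 5′ to 3′ on the minus strand. RefSeq gave 2 windows for Ptprj, and the one nearest the GENCODE start was taken. Capitals mark matches on either strand to letters searched in every window, here GAGGAAG (a core bound by PU.1, an ETS factor of B cells and myeloid cells) and GGGCGG (the GC box of Sp factors).
Ptprj: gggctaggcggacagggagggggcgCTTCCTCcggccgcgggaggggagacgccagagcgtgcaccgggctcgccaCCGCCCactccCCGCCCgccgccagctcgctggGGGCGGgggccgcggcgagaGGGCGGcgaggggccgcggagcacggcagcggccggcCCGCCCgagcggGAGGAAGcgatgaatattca
The window held 2 matches to GAGGAAG, found in 10.6% of 32851 windows, and 5 to GGGCGG, found in 32.7%. Its GC content was 79.2% with 34 CpG, against medians of 52.4% and 6 over all windows.

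Ptpn6 encodes SHP-1, a phosphatase with SH2 domains that bind the inhibitory motifs of receptors such as CD22 and CD72 (chr6:124720707-124738714, minus strand, ENSMUSG00000004266). Values were 323, 350 and 383 (lowest, median, highest) in B cells against 77.6, 99.2 and 115 in T cells. The ranges lay far apart, with the lowest B cell library well above the highest T cell library. Means were 352 ± 20.4 and 97.3 ± 14.4 (SD, n = 6 each), a 3.62-fold excess in B cells (log2 fold change 1.86, SE 0.10, limma adjusted p = 1.6e-09). Among tested genes 21.6% were past the threshold with an absolute log2 fold change of at least 1. Ptpn6 shares 195 exon bases with the antisense gene Gm20531, which had at most 1.13.

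Sequence before Ptpn6 is shown as that of the second gene with a large excess in B cells (chr6:124738715-124738959, minus strand). Capitals mark GGGCGG and the E-box letters CANNTG on either strand, and the closing capitals belong to a match that runs on into the gene.
Ptpn6: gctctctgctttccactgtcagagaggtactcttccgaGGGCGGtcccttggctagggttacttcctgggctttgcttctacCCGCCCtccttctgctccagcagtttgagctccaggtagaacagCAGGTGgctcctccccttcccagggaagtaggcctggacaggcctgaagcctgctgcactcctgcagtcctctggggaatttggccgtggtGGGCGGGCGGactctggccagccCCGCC
Its window held 5 matches to GGGCGG, of which a pair overlaps, 1 to CANNTG (66.2% of windows hold one) and none to GAGGAAG, with a GC content of 63.2% and 7 CpG.

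Ptpn11 encodes SHP-2, the close relative of SHP-1 that acts mostly in growth factor and cytokine signalling (chr5:121130533-121191397, minus strand, ENSMUSG00000043733). It had 14.97, 18.4 and 21.2 (lowest, median, highest) in B cells against 16.6, 17.2 and 18.2 in T cells, so that the T cell libraries lay inside the range of the B cell libraries. Means were 18.1 ± 2.07 and 17.3 ± 0.567 (SD, n = 6 each), with a log2 fold change of 0.06 (SE 0.07, limma adjusted p = 0.47). The 95% interval of the fold on the scale of the fit ran from 0.937 to 1.16. With protein-coding genes rescaled to a total of 1000000, Ptpn11 was higher in B cells (0.34, adjusted p = 0.0078).

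Ptpn22 encodes LYP or PEP, a phosphatase with a proline-rich tail that binds the SH3 domain of Csk (chr3:103859795-103912247, plus strand, ENSMUSG00000027843). Values were 13.1, 14.98 and 16.7 (lowest, median, highest) in B cells against 38.0, 40.4 and 43.1 in T cells, without overlap. It had the largest fold change towards T cells of the 9 genes, with means of 14.95 ± 1.67 and 40.3 ± 1.99 (SD, n = 6 each), a 2.70-fold excess in T cells (log2 fold change -1.38, SE 0.07, limma adjusted p = 1.1e-09).

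Ptpn18 encodes a phosphatase of the same PEST group (chr1:34459762-34475733, plus strand, ENSMUSG00000026126). Lowest, median and highest values were 43.4, 54.0 and 57.4 for B cells against 89.0, 108 and 124 for T cells, again without overlap. Its mean was 52.5 ± 4.95 for B cells against 109 ± 12.7 for T cells (SD, n = 6 each), a 2.07-fold excess in T cells (log2 fold change -1.04, SE 0.09, limma adjusted p = 2.3e-07). Ptpn18 shares 492 exon bases with Gm28417 on the opposite strand, which had 1.62 to 3.24. Pstpip1, an adaptor of the cytoskeleton that PEST phosphatases bind, was also higher in T cells, with 27.3 ± 1.54 against 55.0 ± 2.77 (SD, n = 6 each, log2 fold change -0.99, limma adjusted p = 2.3e-09).

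Ptpn2 encodes TC-PTP, which dephosphorylates JAK kinases, STAT factors and Src kinases (chr18:67665511-67724595, minus strand, ENSMUSG00000024539). In B cells the lowest, median and highest values were 26.4, 28.1 and 30.1, and those of T cells were 40.0, 45.9 and 48.8. All T cell libraries lay above all B cell libraries. Means were 28.3 ± 1.65 and 45.4 ± 3.29 (SD, n = 6 each), a 1.61-fold excess in T cells (log2 fold change -0.66, SE 0.06, limma adjusted p = 5.3e-07). When whole libraries were rescaled to a total of 1000000 the fold change was -0.29 and not past the threshold (adjusted p = 0.20).

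Ptpn7 encodes HePTP, a phosphatase of blood cells that inactivates the MAP kinases ERK and p38 (chr1:135132700-135145317, plus strand, ENSMUSG00000031506). Its lowest, median and highest values were 16.6, 18.3 and 20.996 for B cells against 39.1, 42.4 and 43.5 for T cells. There was no overlap, and the means were 18.5 ± 1.71 and 41.9 ± 1.57 (SD, n = 6 each), a 2.26-fold excess in T cells (log2 fold change -1.14, SE 0.06, limma adjusted p = 3e-09).

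Sequences before Ptpn22 (chr3:103859545-103859794) and Ptpn7 (chr1:135132450-135132699), both on the plus strand, are shown as those of the genes with the largest fold changes towards T cells. Capitals mark the same letters as above on either strand.
Ptpn22: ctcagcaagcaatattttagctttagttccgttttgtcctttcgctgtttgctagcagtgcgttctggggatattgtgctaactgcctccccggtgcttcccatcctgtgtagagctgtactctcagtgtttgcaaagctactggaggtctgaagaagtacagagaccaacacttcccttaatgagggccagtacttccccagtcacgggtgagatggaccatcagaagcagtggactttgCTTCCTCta
Ptpn7: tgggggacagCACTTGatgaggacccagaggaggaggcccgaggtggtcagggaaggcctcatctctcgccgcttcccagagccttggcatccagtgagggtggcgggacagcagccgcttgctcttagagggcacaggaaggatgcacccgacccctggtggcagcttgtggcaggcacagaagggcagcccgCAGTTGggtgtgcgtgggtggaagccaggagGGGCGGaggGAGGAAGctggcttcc
Each window held 1 match to GAGGAAG, where that of Ptprj held 2. Ptpn7 had also 2 matches to CANNTG and 1 to GGGCGG. GC content was 49.2% with 5 CpG at Ptpn22 and 66.0% with 9 CpG at Ptpn7. These matches are letters in a window and were not tied to any measured binding.

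**Figure D2:**
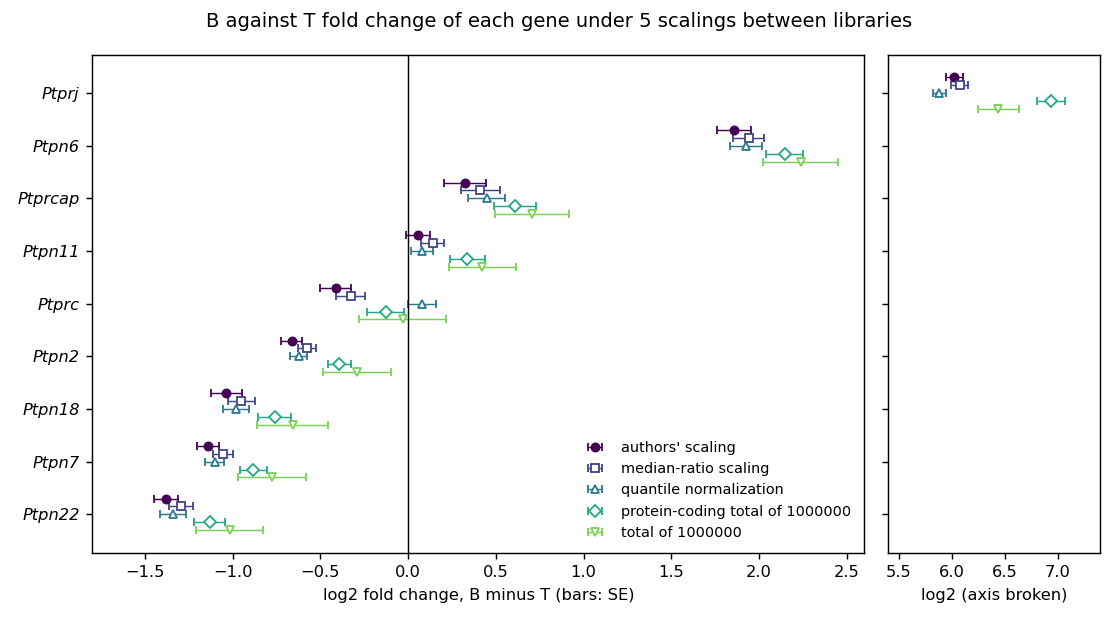
The log2 fold change of B over T cells (bars, SE) for the 9 genes under the authors' scaling and 4 other scalings between the 12 libraries, on an axis broken before Ptprj. Ptprc lies at -0.41 under the authors' scaling and at 0.08 under quantile normalization, and the other 8 genes keep their sign.

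Because TPM is a measure per length, the 9 genes can be ordered within a cell type. By mean adjusted TPM the order in B cells was Ptprc, Ptpn6, Ptprcap, Ptprj, Ptpn18, Ptpn2, Ptpn7, Ptpn11 and Ptpn22. The library ranges of neighbours were separate down to Ptpn2 and Ptpn7, whereas Ptpn7 and Ptpn11 overlapped, with Ptpn7 higher in 4 of 6 libraries, and so did Ptpn11 and Ptpn22, with Ptpn11 higher in 6 of 6. The order in T cells was Ptprc, Ptprcap, Ptpn18, Ptpn6, Ptpn2, Ptpn7, Ptpn22, Ptpn11 and Ptprj. Here Ptpn18 and Ptpn6 overlapped (Ptpn18 higher in 6 of 6), as did Ptpn2 and Ptpn7 and then Ptpn7 and Ptpn22 (the first of each pair higher in 5 of 6). Among 21397 protein-coding genes ordered by mean level in B and then in T cells, Ptprc ranked 80 and 85, Ptpn6 ranked 142 and 592, Ptpn22 ranked 4788 and 1831, and Ptprj ranked 625 and 10294.

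Transcripts of all 38 classical tyrosine phosphatase genes were then summed in each library. That sum was 1406 ± 90.3 for B cells against 1422 ± 83.2 for T cells (SD, n = 6 each), and the 8 phosphatases described here made up 92.1% and 92.0% of it. Its make-up differed. Ptprc took 51.1% ± 1.60 of it in B cells against 67.3% ± 1.40 in T cells, and Ptpn6 took 25.0% ± 0.744 and 6.81% ± 0.690 (SD, n = 6 each). Ptprj took 6.51% in B cells and 0.031% in T cells. Shares of Ptpn18, Ptpn2, Ptpn7 and Ptpn22 were 3.73%, 2.01%, 1.32% and 1.07% in B cells against 7.64%, 3.20%, 2.96% and 2.85% in T cells. Shares within a library are unchanged by any scaling with 1 factor per library, which quantile normalization is not, and the B and T cell ranges were separate for each of these 7 genes. Ptpn11 took 1.29% and 1.22%, with overlapping ranges.

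**Figure D3:**
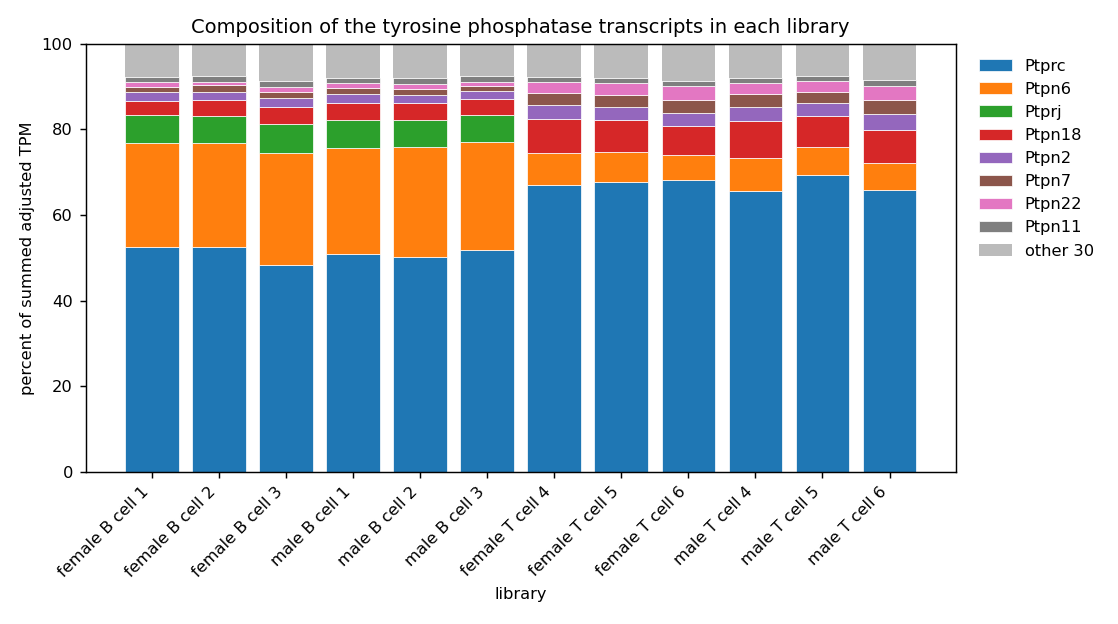
Percent of the summed adjusted TPM of 38 classical tyrosine phosphatase genes taken by each of the 8 phosphatases and by the other 30, as 1 stacked bar per library. Ptpn6 fills 24.3% to 26.2% of the 6 B cell bars and 5.88% to 7.64% of the 6 T cell bars, and Ptprc fills 48.4% to 52.6% and 65.7% to 69.4%.

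Ratios within a library, likewise unchanged by 1 factor per library, were tested for 5 pairs with a two-sided exact permutation test of 6 against 6 libraries. SHP-1 over SHP-2 (Ptpn6 over Ptpn11) was 19.5 ± 1.31 in B cells against 5.61 ± 0.748 in T cells (SD, n = 6 each), 3.50-fold higher in B cells. Ptprcap over Ptprc ran from 0.247 to 0.322 in B cells against 0.147 to 0.212 in T cells, 1.67-fold higher in B cells and without overlap, although the levels of Ptprcap themselves overlapped. Ptprj over Ptprc was 0.128 ± 0.00659 in B cells against 0.000461 ± 0.000249 in T cells (SD, n = 6 each). Ptpn22 over Csk, its binding partner, was 0.0902 ± 0.00946 in B cells against 0.411 ± 0.0601 in T cells (SD, n = 6 each), 4.54-fold higher in T cells. Ptpn2 over its nearest relative Ptpn1 was 0.700 ± 0.0466 and 1.21 ± 0.0588 (SD, n = 6 each), 1.73-fold higher in T cells. All 5 ratios were without overlap, and each gave an exact permutation p of 0.0022, adjusted to 0.0022 over the 5, which is the smallest p this design allows. The pairs were made from genes whose levels were also compared singly, so these p-values are no separate support for those differences. Ptprj passed the filter on low values through the B cells alone. How often ratios of other genes are without overlap was not computed. The test took the libraries as independent, although same-numbered T cell libraries deviated together across tested genes, so this p may be too small. The directions were the same in females and in males, where 3 against 3 libraries cannot reach a p under 0.05 (the smallest is 0.1).

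Female and male mice were compared within each cell type. None of the 9 genes was past the threshold in B cells (limma, 0 genes, also 0 at an unadjusted p under 0.05), where 0.144% of tested genes were (2.98% unadjusted), or in T cells (0 genes, also 0 unadjusted), where 0.104% were (2.55% unadjusted). The libraries of the sexes overlapped for each of the 9 genes in both cell types, while 7.2% of tested genes were without overlap in B cells and 8.49% in T cells. In B cells the log2 difference of females and males ran from -0.10 (Ptpn22) to -0.02 (Ptpn7) and was below 0 for all 9 genes, with a median of -0.01 over all tested genes. In T cells it ran from -0.08 (Ptprcap) to 0.16 (Ptprj). The widest 95% intervals were those of Ptprcap, from -0.45 to 0.29 in both cell types, so differences within them were not detectable with 3 pools a group. As a test of whether the sex difference itself changed with the cell type, the interaction had 0 of the 9 genes past the threshold (limma, 0 at an unadjusted p under 0.05), and 0.0% of all tested genes, with 295 genes (2.36%) at an unadjusted p under 0.05.

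The T cell libraries are numbered 4 to 6 in each sex, and those of the same number deviated together across tested genes. Ptpn6 was highest in both libraries numbered 4 (115 in the female and 109.5 in the male library), intermediate in those numbered 5 (101 and 97.7) and lowest in those numbered 6 (77.6 and 83.4). Ptprcap had 202 and 200, then 167 and 176, then 132 and 148. Ptpn18 had 120 and 124, then 109 and 107, then 89.0 and 102.5. These 3 genes and Ptprc (900 and 871, against 942 to 1024) were lowest in both libraries numbered 6, whereas Ptpn22 (41.7 and 43.1, against 38.0 to 41.0) and Ptprj (0.854 and 0.419, against at most 0.398) were highest there. Ptpn2, Ptpn7 and Ptpn11 were neither lowest nor highest in both. Of the 5 markers of regulatory or activated T cells, 4 were highest in the same libraries numbered 6, namely Il2ra, which encodes the CD25 that the sort excluded, at 4.999 and 4.11 (at most 0.340 in the others), Ikzf2 at 13.4 and 11.3 (at most 2.07), Foxp3 at 2.57 and 1.82 (at most 0.735) and Cd69 at 64.1 and 97.3 (at most 49.98). The other marker, Cd44, was not, with 9.86 and 5.89 against 7.36 to 10.7. The sum of the 5 was 94.96 and 120.3 in these libraries and 51.4 to 63.8 in the other T cell libraries. The part of such cells in the values of these 6 genes of the 9 was not tested. Without both libraries numbered 6, 7 of the 9 genes were past the threshold, Ptprcap being the one lost.

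**Figure D4:**
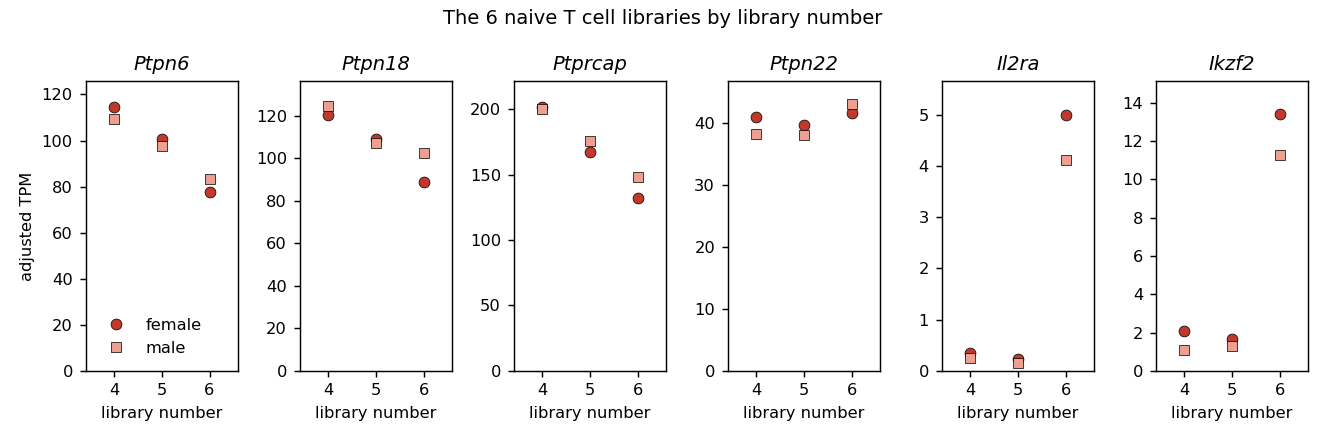
Adjusted TPM in the 6 T cell libraries by library number, with females as circles and males as squares, for 4 of the 9 genes and for Il2ra and Ikzf2. Ptpn6, Ptpn18 and Ptprcap are lowest at number 6 in both sexes, where Il2ra (4.999 and 4.11) and Ikzf2 (13.4 and 11.3) are highest.

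The spread between replicates was set beside that of genes of like level. In T cells the SD within groups, on the log2 scale, was 0.243 for Ptpn6 and 0.264 for Ptprcap, above 93.2% and 92.8% of such genes. Ptpn11 and Ptpn7 varied least in T cells, with 0.0471 and 0.0590, above 4.40% and 10.0%. In B cells Ptpn6 had an SD of 0.0829, above 9.89% of genes of like level, and Ptprcap one of 0.206, above 76.3%.

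Of the other 30 classical tyrosine phosphatase genes, 11 passed the filter, 5 of them higher in B cells, 4 higher in T cells and 2 not past the threshold. The share past it was 81.8%, against 73.0% of all genes tested (31.4% higher in B cells and 41.6% in T cells). Their median log2 fold change was 0.10, against -0.09 over all tested genes. The 19 under the filter had at most 0.687 in any library. Ptpn14, a phosphatase linked to Hippo signalling, had 4.12 ± 0.629 in B cells against 0.0751 ± 0.0202 in T cells (SD, n = 6 each, log2 fold change 2.24). It passed the filter through the B cells alone. Ptprs (0.93) and Ptpn23 (0.80) were the next towards B cells. Ptpn12 (-0.67), the PEST phosphatase related to Ptpn22 and Ptpn18, Ptpra (-0.58) and Ptpre (-0.33) were higher in T cells. Ptpn1, which encodes PTP1B, had 40.5 ± 2.53 and 37.6 ± 1.69 (SD, n = 6 each) and was not past the threshold (limma adjusted p = 0.10).

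The kinases that these phosphatases act on or work against were read from the same comparison. Of 13 Src, Syk and Csk kinases and Csk anchors, 11 passed the filter and all 11 were past the threshold, 7 higher in B cells against 4 in T cells, with a median log2 fold change of 0.74. Syk (7.77), Lyn (7.29) and Blk (7.24), which serve the B cell receptor, led towards B cells, and Zap70 (-5.57), Lck (-4.71) and Fyn (-2.70), which serve the T cell receptor, led towards T cells. Csk had 165.7 ± 4.69 in B cells against 99.5 ± 12.4 in T cells (SD, n = 6 each, log2 fold change 0.74, limma adjusted p = 1.4e-06).

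A list of 19 receptors and adaptors was drawn up around the recruitment of SHP-1 or SHP-2, which was not checked for each gene. Of these, 16 passed the filter, 9 higher in B cells, 6 higher in T cells and 1 (Pecam1) not past the threshold. The share past it was 93.8%, against 73.0% of all genes tested (31.4% higher in B cells and 41.6% in T cells). The median log2 fold change of the 16 was 1.54, against -0.09 over all tested genes. Cd22 (8.37), Siglecg (6.98) and Fcgr2b (5.94), inhibitory receptors of B cells, led towards B cells. Cd5 (-6.53), an inhibitory receptor of T cells, and the adaptors Dok2 (-4.43) and Sit1 (-3.24) led towards T cells. Cd22, Siglecg and Fcgr2b had at most 0.448, 0.349 and 0.0228 in T cells, and Dok2 had at most 0.429 in B cells. Each of these passed the filter through the other cell type alone. Cd5 had at most 1.09 in B cells.

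JAK kinases and STAT factors were listed around substrates of Ptpn2, Ptpn6 and Ptpn11, which was not checked for each gene. All 8 passed the filter, 6 being higher in T cells, 0 higher in B cells and 2 (Tyk2 and Stat6) not past the threshold. The share past it was 75%, near the 73.0% of all genes tested (31.4% higher in B cells and 41.6% in T cells). The median log2 fold change of the 8 was -0.28, against -0.09 over all tested genes. Stat5b (-1.20), Jak1 (-0.80) and Stat5a (-0.69) had the largest changes. After whole libraries were rescaled to a total of 1000000, 1 of the 8 was past the threshold. A list of 13 MAP kinases and dual-specificity MAP kinase phosphatases was drawn up around the pathway of Ptpn7. Of these, 11 passed the filter, 4 higher in B cells, 4 higher in T cells and 3 not past the threshold, with a median of -0.11. The share past the threshold was 72.7%, near the 73.0% of all genes tested (31.4% higher in B cells and 41.6% in T cells). Dusp16 (2.63), Dusp4 (2.20) and Dusp6 (1.57) were the largest towards B cells and Dusp10 (-1.34), Dusp1 (-0.95) and Dusp5 (-0.84) towards T cells. Dusp16 had at most 0.967 in T cells and passed the filter through the B cells alone.

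**Figure D5:**
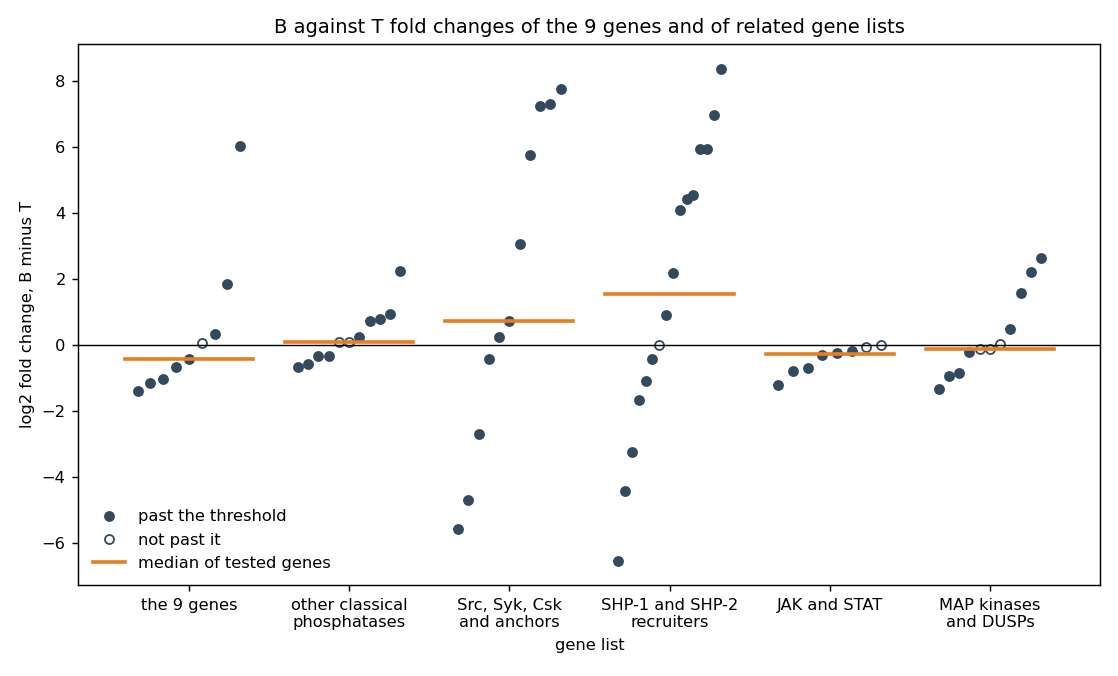
The log2 fold change of B over T cells for each tested gene of the 9 genes and of 5 related lists, filled where past the threshold, with a line at the median of each list. The 9 genes run from -1.38 to 6.02, and the list labelled SHP-1 and SHP-2 recruiters from -6.53 to 8.37.

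Genes with the pattern closest to 3 of the 9 over all 12 libraries were taken from 2295 protein-coding genes whose log2 values averaged at least 5, by the root-mean-square difference of log2 values after centring. Closest to Ptprc were H2afy (0.0551), Sra1 (0.0579) and Epb4.1 (0.0720). Closest to Ptpn22 were Vps37b (0.0997), Grap2 (0.114) and Cytip (0.115), each lower in B than in T cells. The closest to Ptprj lay further off, being Cd72 (0.818), H2-Ob (0.930) and Snn (0.936), with log2 fold changes of 4.42, 4.21 and 4.19 against 6.02 for Ptprj.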

How the data were processed

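RNA freed of ribosomal RNA was sequenced from strand-specific libraries of 12 pools of mice, 3 in each of 4 groups given by the labels. Some label fields name genomic DNA, and the values were treated as RNA. The authors deposited, for 41128 genes and each library, a signal named adjusted TPM together with a lower and an upper bound. Submitters' processing notes name Trim Galore, FastQC, STAR and the build mm10. The quantifier, the adjustment, the level of the interval, and whether counting used strand are not given in the sources used here. The values are not counts and none is 0, so depth is unknown and precision was read from the deposited bounds.

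Genes with at least 1 adjusted TPM in at least 3 libraries were tested (12520 genes). The test was limma 3.58.1 in R 4.3.3 on log2(adjusted TPM + 1) with 1 coefficient per group over 12 libraries and a mean-variance trend, Benjamini-Hochberg over all genes, threshold 0.05, and every adjusted p comes from it unless named otherwise. The fit was tested on simulated data in which the libraries varied independently. Shared deviations of same-numbered T cell libraries were not part of that test, so it does not cover them. Ratios within a library were compared by exact permutation. Python 3.11.15, numpy 2.4.6, pandas 2.3.3 and matplotlib 3.10.9 were used for the rest.

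Coordinates come from GENCODE M21 (GRCm38) and promoter sequences from RefSeq (GRCm38.p6, 7 of the 9 genes matched, Ptprcap and Ptpn2 without an entry). For Ptprc, Ptprj, Ptpn7 and Ptpn22 the source held 2 windows, and the one nearest the GENCODE start was used. Which start these cells use was not tested. Each window was searched on both strands, overlaps counted, for the core of PU.1, an ETS core, the E-box, the GC box and a TATA motif. The 9 genes, the lists and the markers were chosen with earlier results of these data known. All 9 genes are given in full, and from each list up to 3 genes with the largest fold change in each direction past the threshold, with Ptpn1, Csk and the few genes not past the threshold added. Monocyte and regulatory or activated T cell markers come from the marker lists and were singled out after their values were seen. A pair of genes of the lists and markers is not reported here.

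Same-numbered female and male T cell libraries deviated from their group means together across genes (r of 0.72, 0.55 and 0.52), so the numbers pair them as a property of the data, without a label that says what the number marks. The main fit and the permutation test have no term for this, so their p-values for B against T may be too small. Alternatives were a pseudocount of 0.1, no filter, 4 other scalings, no trend, 1 sex or 1 cell type alone, each library left out, the number as a block, and the T cell libraries numbered 6 left out (chosen after seeing the data).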

Additional observations from a re-analysis of the deposited data

Results flagged for a closer look

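The Ptprj value of female T cell 6, 0.854, stood apart from the other 5 T cell libraries (0.302 to 0.419). Its gap to the next library was 0.788 of the range of the group in adjusted TPM without logarithm, over the critical value of 0.625 for 6 libraries. It was the 1 such value among 28 groups of values examined, and chance gives about 1 in 20.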

How the results depend on the processing

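Of the changes of setting, 1 reversed a fold change that was past the threshold and 10 took a value across the threshold towards a lost call. Changes of sign in fold changes not past the threshold are outside that count. Examples are Ptpn11 for B against T (-0.0045 in females alone, 0.057 as reported) and Ptprc for sex in B cells (0.031 under quantile normalization, -0.053 as reported). Ptprc moved to 0.080 under quantile normalization, -0.13 with a protein-coding total of 1000000 and -0.031 with a whole total of 1000000, where Ptpn2 moved to -0.29. Ptpn11 passed at 0.34 with the protein-coding total. Ptprcap lost its call at 0.32 without the filter, 0.32 in females alone and 0.19 without the T cell libraries numbered 6, and its fold change ran from 0.25 to 0.40 when 1 library was left out. Of the calls for B against T, 43.0% were higher in B cells with the authors' scaling, 50.1% with median-ratio scaling, 65.8% with the protein-coding and 70.8% with the whole total. Without the filter 24591 genes passed for B against T, 10985 for sex in B cells, 10607 for sex in T cells and 11201 for the interaction, of which 15633, 10820, 10463 and 11075 were genes under the filter. For sex in B cells, 5 genes passed in B cells alone, 5 with the replicate block there and 36 with the whole total. For sex in T cells, 5 passed in T cells alone with the replicate block, 24 with a pseudocount of 0.1 and 23 with the whole total. The interaction passed in 3 genes without the trend, 1 with a pseudocount of 0.1, 1 under quantile normalization, 1 with the protein-coding and 16 with the whole total, 3 without the T cell libraries numbered 6, and 0 to 3 when 1 library was left out (3 without female T cell 6). Among the lists, 20 other phosphatases passed without the filter (9 with it), 1 JAK or STAT gene with the whole total (6) and 5 MAP kinase genes in males alone (8). The cause of these shifts was not tested.

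With the library number as a replicate block in all 12 libraries, 9312 genes passed for B against T, 14 and 10 for sex in B and T cells and 0 for the interaction. The block changed no call among the 9 genes. No number occurs in both B and T cells, so this fit leaves the spread between numbers out of the error for B against T. It therefore cannot check the calls for B against T. Same-numbered B cell libraries did not deviate together (r of -0.17, -0.04 and -0.34), so in B cells the block pairs libraries that share only a number. Depth is unknown, and values under 1 carry wide deposited intervals.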
